A study of Mus musculus with 11 samples.

Results

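Chemokines are small secreted proteins that guide the migration of leukocytes, and the inflammatory cytokines considered with them recruit, feed, or activate the same cells. The members were chosen by symbol: every CC chemokine gene named Ccl with a number, every CXC chemokine gene named Cxcl with a number, and Cx3cl1, together with the cytokine genes Il6, Il11, Il33, Il1a, Il1b, Lif, Csf1, Csf2, Csf3, Tnf, and Tslp and the prostaglandin enzyme gene Ptgs2. This gave 44 of the 28284 genes in the table, of which 18 were CC chemokines, 13 were CXC chemokines, 1 was the CX3C chemokine, and 12 were the other cytokine genes and Ptgs2. Chemokines bind G protein-coupled receptors that are mostly displayed by leukocytes, and their genes sit in tandem clusters that arose by duplication. Many of these genes are switched on by the transcription factor NF-kB downstream of interleukin 1, tumor necrosis factor, and sensors of microbes, while others are driven by interferon. In ovarian and uterine tumors, chemokines and colony-stimulating factors made by tumor cells and stroma are known for drawing in macrophages, neutrophils, and lymphocytes.

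The libraries were made from 11 OvTrpMyc cell lines, grown from 7 mice of the genotype Ovgp1-Trp53-R270H-Myc, in which the Ovgp1 promoter of the fallopian tube epithelium drives a mutant p53 and MYC from a construct knocked into the Trp53 locus of heterozygous mice. All mice had this genotype in the labels, all lines grew without treatment in RPMI medium, and no line without the transgene was analysed here. The lines came from an ovary (7 lines), a uterus (2 lines), a splenic tumor (1 line), and a peritoneal tumor (1 line). Each was sequenced as 1 library, and the ages of the mice were not in the labels. Of the 7 mice, 4 (F318, F319, F326, and F364) were the source of 2 lines each. In its copy-number analysis the study used both F326 lines and the F361 line as controls, because of their few initial calls. The lines were grown out from minced tissue, and the study's methods give the F361 line as no longer expressing the mutated p53 copy. The library numbers in the labels were 1 to 7 for F364 ROV, F326 splenic tumor, F364 LOV, F326 ROV, F361 peritoneal tumor, F319 ROV, and F318 ROV, and 8 to 11 for the lines F339 ROV and F318 LOV and the uterus lines of F319 and F333.

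Levels are given as CPM, the count of a gene divided by the total of its library and multiplied by 1e+06. The totals ranged from 13580525 to 27044598 counts with a median of 17517765, and 3 counts, the least taken as detection, corresponded to 0.111 to 0.221 CPM. The libraries stood apart at library number 7, which earlier results of these data had shown and which set the cut used here. A list of skeletal muscle fiber genes took 9.58% to 17.4% of the counts in libraries 1 to 7 and 0.263% to 1.53% in libraries 8 to 11. The 4 Y-linked genes summed to 128 to 174 CPM against 1.75 to 19.2 CPM, although the ovary and uterus lines were derived from female organs. A list of 16 macrophage markers summed to 90.5 to 181 CPM in libraries 1 to 7 against 6.20 to 19.5 CPM in libraries 8 to 11. Of these markers, Ptprc, Adgre1, Itgam, Fcer1g, Aif1, and Spi1 had a count of 0 in at least 1 line. Of 12 epithelial markers, 9 had a count of 0 in at least 1 line, while 12 fibroblast markers were detected in every line. Both uterus lines were in libraries 8 to 11, so that the organs can be compared apart from library number only within libraries 8 to 11, with 2 lines of each.

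The promoters of 4 members are shown as those of genes described in detail here. Csf1 and Cxcl14 moved in opposite directions between the library sets, and Cxcl1 and Cxcl10 were high in a few lines. The letters are the 250 bases before the RefSeq start site on GRCm38.p6, in the direction of transcription, and capitals mark matches on either strand to the motifs described after them.
Csf1, chr3:107760470-107760719, minus strand: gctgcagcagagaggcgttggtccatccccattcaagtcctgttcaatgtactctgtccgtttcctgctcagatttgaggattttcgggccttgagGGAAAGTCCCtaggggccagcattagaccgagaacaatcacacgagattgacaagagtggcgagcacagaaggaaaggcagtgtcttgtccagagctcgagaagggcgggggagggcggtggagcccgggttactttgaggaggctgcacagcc
Cxcl14, chr13:56296552-56296801, minus strand: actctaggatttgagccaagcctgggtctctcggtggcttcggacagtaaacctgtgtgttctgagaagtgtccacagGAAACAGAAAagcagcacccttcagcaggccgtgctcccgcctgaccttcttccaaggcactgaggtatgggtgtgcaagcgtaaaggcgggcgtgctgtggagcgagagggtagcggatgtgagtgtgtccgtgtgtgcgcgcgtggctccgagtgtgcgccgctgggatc
Cxcl1, chr5:90890995-90891244, plus strand: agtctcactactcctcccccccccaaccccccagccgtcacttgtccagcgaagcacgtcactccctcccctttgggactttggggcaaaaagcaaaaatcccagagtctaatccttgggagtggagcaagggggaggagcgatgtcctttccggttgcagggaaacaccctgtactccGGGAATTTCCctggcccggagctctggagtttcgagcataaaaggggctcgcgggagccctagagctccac
Cxcl10, chr5:92348890-92349139, minus strand: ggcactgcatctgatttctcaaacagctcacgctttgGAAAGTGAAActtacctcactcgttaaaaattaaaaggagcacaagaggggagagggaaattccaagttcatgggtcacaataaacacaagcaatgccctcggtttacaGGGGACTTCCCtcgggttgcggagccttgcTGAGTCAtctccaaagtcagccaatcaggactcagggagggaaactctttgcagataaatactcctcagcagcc

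Counted back from the start site, the Csf1 window held a match to the NF-kB consensus at -154 to -145, and Cxcl1 held another at -71 to -62. The Cxcl10 window held a pair of overlapping NF-kB matches at -104 to -95 and -103 to -94, an AP-1 match (TGANTCA) at -74 to -68, and an interferon-stimulated response element (ISRE) at -213 to -204. The Cxcl14 window held an ISRE match at -172 to -163. RefSeq gave 40 promoters for 32 of the 44 members. Of these 40, 8 held the NF-kB consensus, or 20% against 5.0% of all 32851 promoters in the table, and the 8 belonged to Ccl20, Ccl9, Csf1, Cxcl1, Cxcl10, Cxcl2, Cxcl3, and Il6. The AP-1 motif was also in 8 of the 40 (6.75% of all promoters), and the ISRE was in 2 (2.98% of all). TATAAA was in 15 of the 40, or 37.5% against 12.4% of all promoters, the E-box CACGTG was in 1 (6.02% of all), and the cyclic AMP response element TGACGTCA was in 0 (1.55% of all). These shares describe letters in a window and no factor was measured, and the promoters of some clustered genes share sequence by descent.

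Of the 44 members, 20 reached 10 CPM in at least 1 line, 12 reached 1 CPM but not 10, and 12 stayed under 1 CPM in every line. Between 23 and 35 members were detected per line, and 12 or fewer passed 10 CPM in any line. The summed level of the members ran from 348 CPM in the F361 peritoneal tumor line to 3707 CPM in F339 ROV. It was 348 to 1199.9 CPM in libraries 1 to 7 against 1317 to 3707 CPM in libraries 8 to 11. Cxcl12 alone took from 5.28% of this sum in the F333 uterus line to 77.3% in the F326 splenic tumor line. Per kilobase of exon, the scale on which levels of different genes can be set side by side, Csf1 had the highest median level over the lines (63.3 CPM per kb), followed by Cxcl12 (31.4), Cxcl14 (29.4), and Ccl7 (12.6). The member leading on this scale changed from line to line: Cxcl14 led in 5 lines, Csf1 in 3, Cxcl12 in 2, and Ccl7 in the F319 uterus line.

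**Figure D1:**
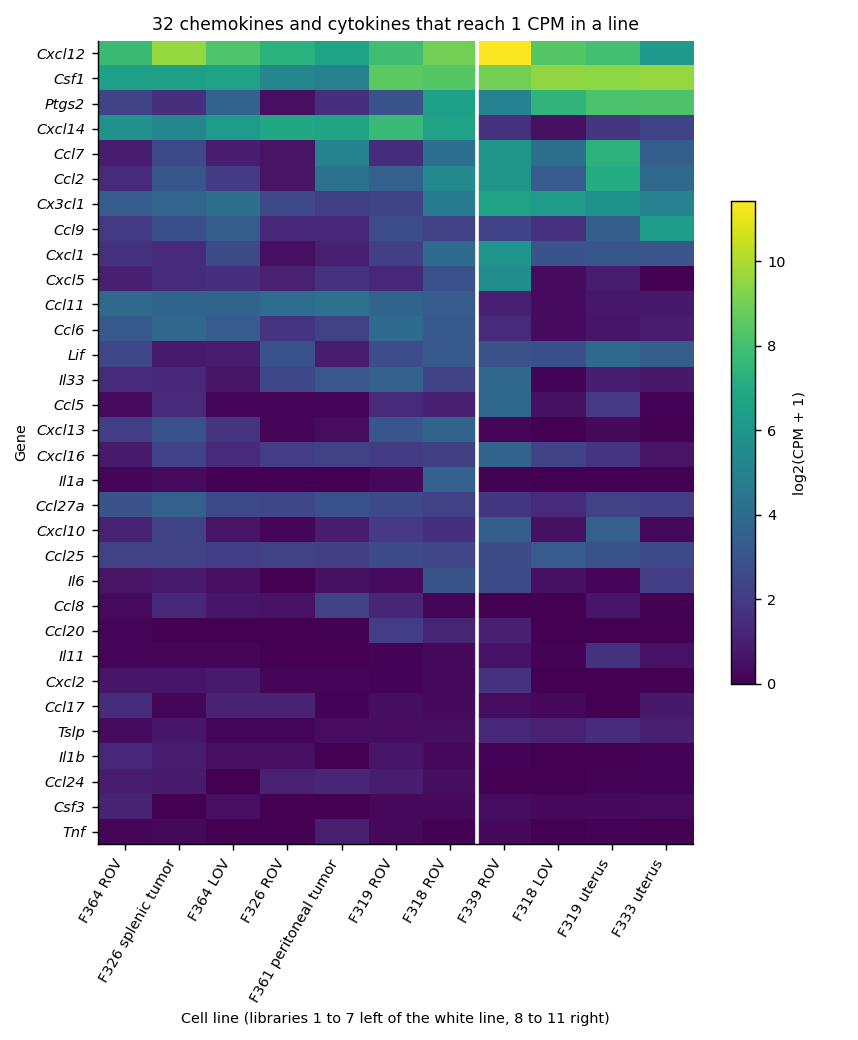
Heat map of log2(CPM + 1) for the 32 members that reached 1 CPM in at least 1 line (rows, ordered by highest level) over the 11 lines (columns, in order of library number). Cxcl12 and Csf1 were high in every line, Cxcl14 and Ccl11 were dark to the right of the white line, and Ptgs2 and Cx3cl1 were brighter there.

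To ask how far the levels followed the library number, libraries 8 to 11 were compared with libraries 1 to 7 by edgeR's quasi-likelihood test. Over all genes, 58.5% of 15954 passed an adjusted p of 0.05, with 28.6% higher and 29.9% lower in libraries 8 to 11. Of the 25 members tested, 12 passed, so their share was under that of all genes. The 5 higher members were Ptgs2, Csf1, Cx3cl1, Ccl9, and Tslp, and the 7 lower ones were Cxcl14, Cxcl13, Ccl11, Ccl24, Ccl6, Ccl8, and Ccl27a. With the mouse as a block, which rests on the 2 mice (F318 and F319) with a line on both sides, 3028 genes (19.0%) and 4 members passed. Of these genes 869 were higher and 2159 lower, and all 4 members were lower (Ccl11, Ccl6, Cxcl14, and Il33). Within the ovary lines, 6757 genes (40.7%, with 3091 higher and 3666 lower) and 11 members (3 higher and 8 lower) passed. The 2 library sets did not overlap for 24.7% of genes reaching 1 CPM that were higher in libraries 8 to 11 and for 16.4% that were lower. Among the 32 members reaching 1 CPM, 3 were above every line of the other set (Csf1, Cx3cl1, and Tslp) and 4 were below (Cxcl14, Ccl11, Ccl6, and Ccl27a). Because lines of the same mouse are not independent, these p-values measure the spread between libraries.

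**Figure D2:**
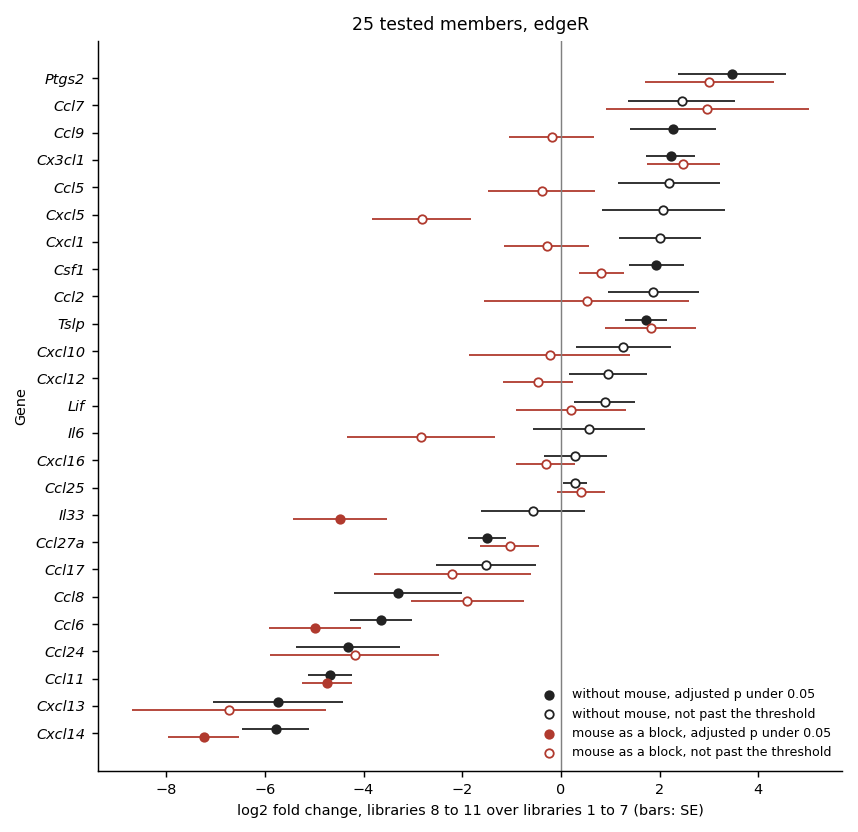
Log2 fold change of the 25 tested members in libraries 8 to 11 over libraries 1 to 7, with bars of 1 SE, from edgeR fits without the mouse (black) and with the mouse as a block (red). Filled points passed an adjusted p of 0.05: 12 without the block, 4 with it, and Cxcl14, Ccl11, and Ccl6 in both.

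Among the CXC chemokines, Cxcl12 and Cxcl14 were the most abundant in counts. Cxcl12, which holds stem cells and lymphocytes in their niches and attracts cells with the receptor Cxcr4, lies on chromosome 6 from 117168535 to 117181367 (GRCm38). Cxcl12 was at 223 CPM in F364 ROV, 783 CPM in the F326 splenic tumor line, 308 CPM in F364 LOV, 155 CPM in F326 ROV, 97.4 CPM in the F361 peritoneal tumor line, 240.0 CPM in F319 ROV, and 499.9 CPM in F318 ROV. It reached 2737 CPM in F339 ROV, 336 CPM in F318 LOV, 257 CPM in the F319 uterus line, and 69.5 CPM in the F333 uterus line. F339 ROV was thus 3.50 times the next line, and the F333 uterus line was the lowest. The library sets overlapped and Cxcl12 did not pass the test (log2 fold change 0.96, SE 0.79, edgeR adjusted p = 0.313). It passed within the ovary lines (log2 fold change 2.09, edgeR adjusted p = 0.0373), where F339 ROV was above and F318 LOV within the range of the other 5 lines, and did not with the mouse as a block (log2 fold change -0.47, edgeR adjusted p = 0.665).

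Cxcl14, a chemokine made by resting epithelium and stroma whose receptor is not settled, was high in libraries 1 to 7 and lies on chromosome 13 from 56288643 to 56296551. Cxcl14 was at 53.6 CPM in F364 ROV, 38.2 CPM in the F326 splenic tumor line, 76.8 CPM in F364 LOV, 109 CPM in F326 ROV, 102 CPM in the F361 peritoneal tumor line, 215 CPM in F319 ROV, and 95.7 CPM in F318 ROV. It had 2.12 CPM in F339 ROV, 0.436 CPM in F318 LOV, 2.48 CPM in the F319 uterus line, and 3.85 CPM in the F333 uterus line. The lowest line of libraries 1 to 7 was above the highest of libraries 8 to 11, and the gene fell (log2 fold change -5.79, SE 0.67, edgeR adjusted p = 6.88e-05), also with the mouse as a block (log2 fold change -7.24, edgeR adjusted p = 0.00352) and within the ovary lines (log2 fold change -6.75, edgeR adjusted p = 0.00374). In bulk RNA, fewer cells of a type and less RNA per cell cannot be told apart. The part that the muscle and macrophage transcripts of libraries 1 to 7 had in this difference was not tested.

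Cxcl13, which draws B cells to follicles, was low throughout. Cxcl13 was at 3.17 CPM in F364 ROV, 6.27 CPM in the F326 splenic tumor line, 2.40 CPM in F364 LOV, 0.295 CPM in the F361 peritoneal tumor line, 7.39 CPM in F319 ROV, 11.9 CPM in F318 ROV, and fewer than 3 counts in F326 ROV. It had 0.157 CPM in F339 ROV, 0.222 CPM in the F319 uterus line, and fewer than 3 counts in F318 LOV and the F333 uterus line. The library sets overlapped through F326 ROV, which was below the F339 ROV and F319 uterus lines. The gene fell in libraries 8 to 11 (log2 fold change -5.74, SE 1.32, edgeR adjusted p = 0.00301), where its levels lay at or near the detection limit, but not with the mouse as a block (log2 fold change -6.74, edgeR adjusted p = 0.057). Cxcl16, which is made as a membrane protein and binds Cxcr6, was at 0.761 CPM in F364 ROV, 3.86 CPM in the F326 splenic tumor line, 1.58 CPM in F364 LOV, 3.20 CPM in F326 ROV, 3.76 CPM in the F361 peritoneal tumor line, 3.13 CPM in F319 ROV, and 3.48 CPM in F318 ROV. It was at 11.3 CPM in F339 ROV, 4.10 CPM in F318 LOV, 2.37 CPM in the F319 uterus line, and 0.511 CPM in the F333 uterus line. F339 ROV was 2.75 times the next line, and the library sets overlapped with or without it. In the fit of all 11 lines the gene did not pass (log2 fold change 0.29, SE 0.64, edgeR adjusted p = 0.716). Cxcl16 overlaps Zmynd15 on the opposite strand by 552 bases.

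Cxcl1, Cxcl2, Cxcl3, and Cxcl5 attract neutrophils through Cxcr2, and their genes lie with Cxcl15 on chromosome 5 from 90759360 to 90905938. Cxcl1 was at 2.16 CPM in F364 ROV, 1.65 CPM in the F326 splenic tumor line, 5.06 CPM in F364 LOV, 0.401 CPM in F326 ROV, 1.03 CPM in the F361 peritoneal tumor line, 3.54 CPM in F319 ROV, and 14.7 CPM in F318 ROV. It was at 60.2 CPM in F339 ROV, 6.503 CPM in F318 LOV, 7.36 CPM in the F319 uterus line, and 7.15 CPM in the F333 uterus line. F339 ROV exceeded the next line, F318 ROV, by 4.11 times, and the gene did not pass the test (log2 fold change 2.01, SE 0.83, edgeR adjusted p = 0.0545). It passed when any of F318 ROV, F318 LOV, F319 uterus, or F333 uterus was left out, with log2 fold changes of 2.28 to 2.69 and edgeR adjusted p-values of 0.011 to 0.048. It turned to the other sign and did not pass with the mouse as a block (log2 fold change -0.29, edgeR adjusted p = 0.83), and in mouse F318 the later library was the lower. Cxcl5 was at 1.01 CPM in F364 ROV, 1.77 CPM in the F326 splenic tumor line, 1.90 CPM in F364 LOV, 1.07 CPM in F326 ROV, 2.21 CPM in the F361 peritoneal tumor line, 1.52 CPM in F319 ROV, and 6.34 CPM in F318 ROV. It had 48.1 CPM in F339 ROV, 0.262 CPM in F318 LOV, 0.850 CPM in the F319 uterus line, and fewer than 3 counts in the F333 uterus line. F339 ROV again stood out, at 7.59 times F318 ROV, while the other 3 lines of libraries 8 to 11 were below every line of libraries 1 to 7, and the fold change was uncertain (log2 fold change 2.07, SE 1.24, edgeR adjusted p = 0.168). Leaving out F339 ROV turned it to -2.91 on the log2 scale (edgeR adjusted p = 0.023). The mouse as a block gave the same sign without a call (log2 fold change -2.82, edgeR adjusted p = 0.0938). Cxcl2 reached at most 2.08 CPM and Cxcl3 at most 0.431 CPM (11 counts), again in F339 ROV, so that 4 of the 5 genes of this cluster were highest in that line, and Cxcl15 was highest in F319 ROV at 0.448 CPM. F339 ROV was highest for 12.3% of all genes reaching 10 CPM in any line, a limit that only Cxcl1 and Cxcl5 of the cluster reached.

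Cxcl9, Cxcl10, and Cxcl11 are induced by interferon and bind Cxcr3 on activated T cells. Cxcl10 was at 1.14 CPM in F364 ROV, 4.11 CPM in the F326 splenic tumor line, 0.506 CPM in F364 LOV, 0.884 CPM in the F361 peritoneal tumor line, 2.78 CPM in F319 ROV, 1.94 CPM in F318 ROV, and fewer than 3 counts in F326 ROV. It was at 10.1 CPM in F339 ROV, 0.436 CPM in F318 LOV, 10.3 CPM in the F319 uterus line, and 0.186 CPM in the F333 uterus line. F339 ROV and the F319 uterus line were nearly level at the top, and the library sets overlapped (log2 fold change 1.27, SE 0.96, edgeR adjusted p = 0.272). Its neighbors stayed low, with at most 0.633 CPM for Cxcl9 (F326 splenic tumor) and 0.810 CPM for Cxcl11 (F361 peritoneal tumor). Cxcl10 and Cxcl11 both lie opposite to Art3, and the strand setting of the counting was not given in the sources used here. The mucosal chemokine Cxcl17 reached 0.343 CPM in F318 ROV.

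Interferon-response genes were described beside Cxcl10 from a list of 17. Of 16 tested, 4 were higher and 0 lower in libraries 8 to 11, a share of higher genes under the 28.6% over all genes. The median log2 fold change was 1.01 against 0.03 over all genes. The counts for this and the other lists stand beside 28.6% of all genes higher and 29.9% lower. Ifit2 (log2 fold change 1.83, SE 0.36, edgeR adjusted p = 0.00118), Ddx58 (log2 fold change 1.997, SE 0.56, edgeR adjusted p = 0.00917), and Irf1 (log2 fold change 1.05, SE 0.34, edgeR adjusted p = 0.018) had the smallest p-values, and Ifit1 was the other (log2 fold change 2.79, SE 0.94, edgeR adjusted p = 0.0225). F339 ROV held the highest level of 14 of the 17 and the F319 uterus line of the other 3, and Isg15 was at 50.1 CPM against 8.48 CPM in the next line. Of all 12077 genes reaching 10 CPM in any line, F339 ROV was highest for 12.3% and the F319 uterus line for 22.1%. The sum over the list was 49.1 to 134 CPM in libraries 1 to 7 against 108 to 678 CPM in libraries 8 to 11.

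The CC chemokines that attract monocytes, eosinophils, and basophils form a cluster on chromosome 11 from 82035571 to 82116799, in the order Ccl2, Ccl7, Ccl11, Ccl12, and Ccl8. Ccl2 and Ccl7 both bind Ccr2 and recruit monocytes. Ccl2 was at 1.65 CPM in F364 ROV, 7.40 CPM in the F326 splenic tumor line, 3.04 CPM in F364 LOV, 0.534 CPM in F326 ROV, 18.8 CPM in the F361 peritoneal tumor line, 10.3 CPM in F319 ROV, and 40.7 CPM in F318 ROV. It was at 64.3 CPM in F339 ROV, 9.08 CPM in F318 LOV, 129.6 CPM in the F319 uterus line, and 14.5 CPM in the F333 uterus line. The F319 uterus line had 2.01 times the level of F339 ROV, and F326 ROV had the lowest level. Ccl7 was at 0.888 CPM in F364 ROV, 4.75 CPM in the F326 splenic tumor line, 0.886 CPM in F364 LOV, 0.534 CPM in F326 ROV, 33.6 CPM in the F361 peritoneal tumor line, 1.79 CPM in F319 ROV, and 17.0 CPM in F318 ROV. It was at 64.0 CPM in F339 ROV, 17.7 CPM in F318 LOV, 158 CPM in the F319 uterus line, and 10.1 CPM in the F333 uterus line. The F319 uterus line was again the highest, F339 ROV the next, and F326 ROV the lowest, as for Ccl2. Neither gene passed the library comparison by edgeR (Ccl2, log2 fold change 1.87, SE 0.92, edgeR adjusted p = 0.0989, and Ccl7, log2 fold change 2.45, SE 1.08, edgeR adjusted p = 0.0698). DESeq2 called Ccl7 higher (log2 fold change 2.41, adjusted p = 0.0336). Leaving out the F361 peritoneal tumor line, which had the next level of Ccl7 after those 2 lines, brought Ccl7 to a log2 fold change of 3.58 with an edgeR adjusted p of 0.0098, and leaving out F318 ROV brought Ccl2 to 2.49 with 0.033. Neither passed with the mouse as a block (Ccl2, log2 fold change 0.52, edgeR adjusted p = 0.879, and Ccl7, log2 fold change 2.96, edgeR adjusted p = 0.333), and in mouse F318 Ccl2 was lower in the later library. Ccl2 lies opposite to the annotated gene Gm17268.

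Ccl11 (eotaxin), which attracts eosinophils through Ccr3, was highest in libraries 1 to 7. Ccl11 was at 14.3 CPM in F364 ROV, 11.96 CPM in the F326 splenic tumor line, 11.4 CPM in F364 LOV, 16.6 CPM in F326 ROV, 18.6 CPM in the F361 peritoneal tumor line, 11.46 CPM in F319 ROV, and 8.73 CPM in F318 ROV. It was at 1.02 CPM in F339 ROV, 0.262 CPM in F318 LOV, 0.666 CPM in the F319 uterus line, and 0.743 CPM in the F333 uterus line. All 7 lines of libraries 1 to 7 were above all 4 others, and the gene fell (log2 fold change -4.68, SE 0.45, edgeR adjusted p = 3.58e-05), also with the mouse as a block (log2 fold change -4.74, edgeR adjusted p = 0.00392). In each of the 2 mice with lines on both sides it was lower in the later library, at 0.262 against 8.73 CPM in F318 and 0.666 against 11.46 CPM in F319. Ccl8, another monocyte attractant, ranged from fewer than 3 counts to 3.76 CPM in the F361 peritoneal tumor line and fell (log2 fold change -3.31, SE 1.30, edgeR adjusted p = 0.0437). That call was lost with the mouse as a block (log2 fold change -1.90, edgeR adjusted p = 0.271), without the filter on low counts, and when any of 6 single lines was left out (adjusted p of 0.051 to 0.097). Ccl12 stayed at or under 0.759 CPM. Ccl24 (eotaxin-2), which shares Ccr3 with Ccl11 but lies on chromosome 5, reached 1.33 CPM in the F361 peritoneal tumor line and fell (log2 fold change -4.32, SE 1.06, edgeR adjusted p = 0.00437), though not with the mouse as a block (log2 fold change -4.18, edgeR adjusted p = 0.127).

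**Figure D3:**
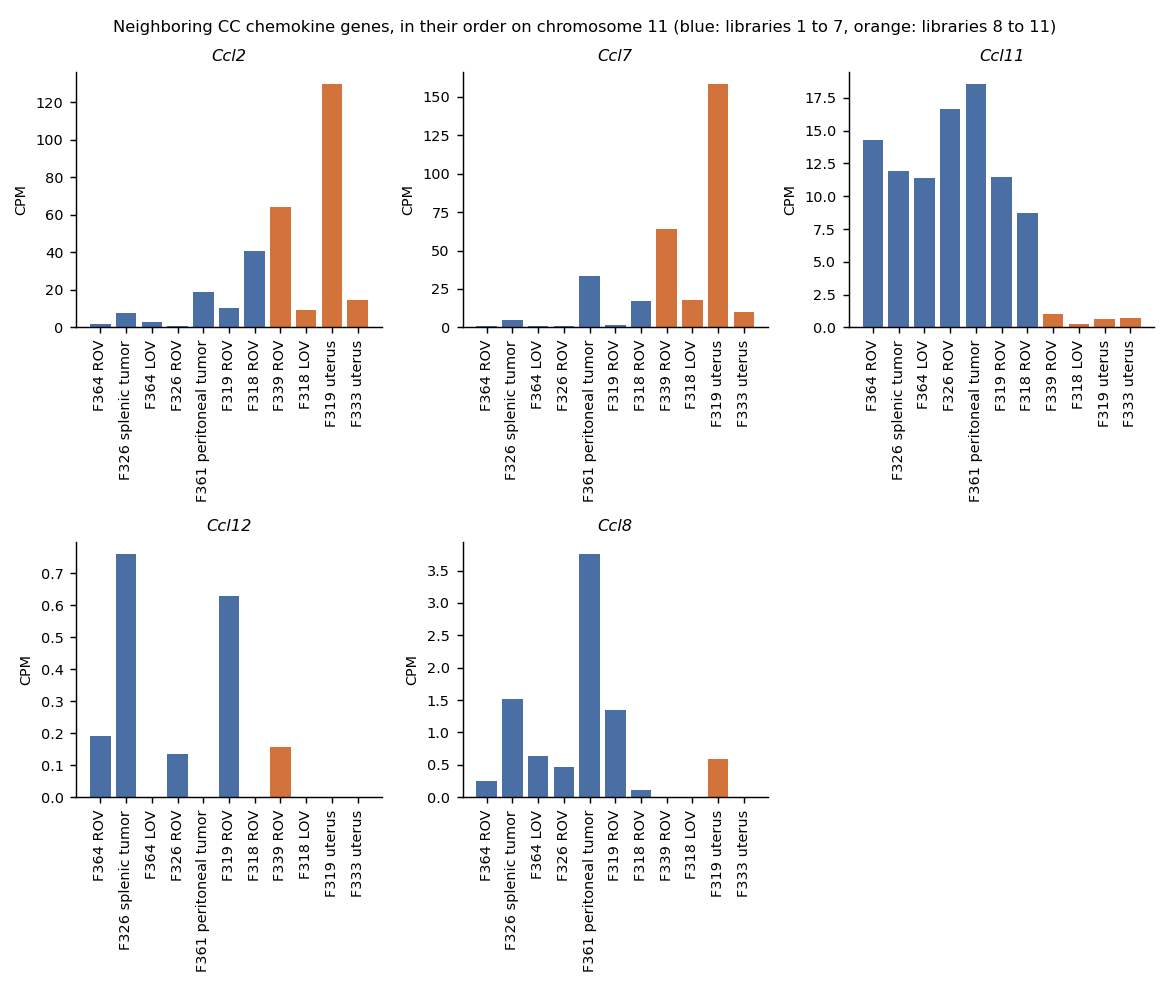
CPM of the 5 CC chemokine genes of the cluster on chromosome 11, in their order along it, in each line (blue, libraries 1 to 7, and orange, libraries 8 to 11, each panel with its own axis from 0). Ccl2 and Ccl7 were highest in the F319 uterus line, and Ccl11 was at 8.73 to 18.6 CPM in libraries 1 to 7 against 0.262 to 1.02 CPM in libraries 8 to 11.

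Another cluster on chromosome 11, from 83525778 to 83664683, holds Ccl5, Ccl9, Ccl6, Ccl3, and Ccl4, which attract monocytes and other leukocytes. Ccl6, a rodent chemokine of macrophages, was at 7.93 CPM in F364 ROV, 12.6 CPM in the F326 splenic tumor line, 8.73 CPM in F364 LOV, 2.27 CPM in F326 ROV, 3.61 CPM in the F361 peritoneal tumor line, 14.7 CPM in F319 ROV, and 8.16 CPM in F318 ROV. It was at 1.61 CPM in F339 ROV, 0.262 CPM in F318 LOV, 0.592 CPM in the F319 uterus line, and 0.882 CPM in the F333 uterus line. The sets did not overlap and the gene fell (log2 fold change -3.65, SE 0.63, edgeR adjusted p = 0.000557), also with the mouse as a block (log2 fold change -4.99, edgeR adjusted p = 0.0173). Ccl6 lies opposite to the transcript E230016K23Rik. In the same libraries the macrophage list was lower for 14 of its 16 genes, 0 were higher, and its median log2 fold change was -4.75. C1qb (log2 fold change -5.87, SE 0.39, edgeR adjusted p = 1.75e-05), Mrc1, and C1qc led it, and its part in the result for Ccl6 was not tested.

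Ccl9, a close relative next to Ccl6, had 1 high line. Ccl9 was at 2.79 CPM in F364 ROV, 5.89 CPM in the F326 splenic tumor line, 9.18 CPM in F364 LOV, 1.47 CPM in F326 ROV, 1.47 CPM in the F361 peritoneal tumor line, 5.46 CPM in F319 ROV, and 3.71 CPM in F318 ROV. It was at 3.96 CPM in F339 ROV, 2.10 CPM in F318 LOV, 9.87 CPM in the F319 uterus line, and 83.5 CPM in the F333 uterus line. The F333 uterus line had 8.46 times the level of the next. The gene passed as higher in libraries 8 to 11 (log2 fold change 2.26, SE 0.87, edgeR adjusted p = 0.0408), but without that line the log2 fold change was -0.12 (edgeR adjusted p = 0.89), with the mouse as a block it was -0.19 (adjusted p = 0.89), and within the ovary lines it was -0.96 (adjusted p = 0.32). The call therefore rested on F333, and it was also lost (adjusted p of 0.054 to 0.070) when any of 6 lines of libraries 1 to 7 was left out. Ccl5, made by activated T cells and by cells exposed to virus, was at 0.254 CPM in F364 ROV, 1.58 CPM in the F326 splenic tumor line, 1.61 CPM in F319 ROV, 1.03 CPM in F318 ROV, and fewer than 3 counts in F364 LOV, F326 ROV, and the F361 peritoneal tumor line. It had 13.5 CPM in F339 ROV, 0.436 CPM in F318 LOV, 2.74 CPM in the F319 uterus line, and fewer than 3 counts in the F333 uterus line. F339 ROV held 4.94 times the next level, and the gene did not pass (log2 fold change 2.19, SE 1.04, edgeR adjusted p = 0.0873) but did when the F333 uterus line was left out (2.60, edgeR adjusted p = 0.038). Its sign turned with the mouse as a block (log2 fold change -0.39, edgeR adjusted p = 0.821). Ccl3 and Ccl4 were detected in F326 ROV alone, both at 0.200 CPM.

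The remaining CC chemokines were low. Ccl27a, a chemokine of skin that binds Ccr10, was at 6.59 CPM in F364 ROV, 10.6 CPM in the F326 splenic tumor line, 4.999 CPM in F364 LOV, 4.47 CPM in F326 ROV, 6.41 CPM in the F361 peritoneal tumor line, 4.97 CPM in F319 ROV, and 3.77 CPM in F318 ROV. It was at 2.63 CPM in F339 ROV, 1.61 CPM in F318 LOV, 3.70 CPM in the F319 uterus line, and 3.16 CPM in the F333 uterus line. The sets did not overlap and the gene fell (log2 fold change -1.50, SE 0.39, edgeR adjusted p = 0.00612), but not with the mouse as a block (log2 fold change -1.04, edgeR adjusted p = 0.247). Its value is uncertain because Ccl27a has near-identical copies, of which Ccl27b was listed at up to 0.380 CPM, and because it overlaps Il11ra1 on the opposite strand by 8 bases. Ccl25, which guides cells to the gut and thymus, was the most even of the members reaching 1 CPM in all lines, 3.29 CPM at the lowest (F364 LOV) and 8.73 CPM at the highest (F318 LOV) (log2 fold change 0.28, SE 0.24, edgeR adjusted p = 0.337). It overlaps Elavl1 on the opposite strand by 204 bases, and the part of Elavl1 reads in this level was not tested. Ccl17, a ligand of Ccr4, ranged up to 1.78 CPM in F364 ROV and Ccl20, a ligand of Ccr6, up to 3.18 CPM in F319 ROV. Ccl28 reached 0.960 CPM in F318 LOV, and Ccl22 was at fewer than 3 counts in every line.

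Cx3cl1 (fractalkine), which is made as a membrane-anchored adhesion molecule and shed as an attractant of cells with Cx3cr1, lies on chromosome 8 from 94772009 to 94782427. Cx3cl1 was at 8.88 CPM in F364 ROV, 12.2 CPM in the F326 splenic tumor line, 17.8 CPM in F364 LOV, 4.74 CPM in F326 ROV, 3.31 CPM in the F361 peritoneal tumor line, 4.03 CPM in F319 ROV, and 24.3 CPM in F318 ROV. It was at 95.3 CPM in F339 ROV, 76.7 CPM in F318 LOV, 55.6 CPM in the F319 uterus line, and 32.5 CPM in the F333 uterus line. The 4 lines of libraries 8 to 11 were above the other 7, and the gene rose (log2 fold change 2.23, SE 0.50, edgeR adjusted p = 0.00249), also within the ovary lines (log2 fold change 2.51, edgeR adjusted p = 0.0165). With the mouse as a block the size was similar and the call was lost (log2 fold change 2.48, edgeR adjusted p = 0.0595). Of Ccl22 and Ccl17, which flank it on chromosome 8, Ccl17 did not pass (log2 fold change -1.53, SE 1.02, edgeR adjusted p = 0.214) and Ccl22 was too low to test.

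Csf1 (macrophage colony-stimulating factor), the growth factor that keeps macrophages alive through Csf1r, lies on chromosome 3 from 107741048 to 107760469 and is the gene whose promoter with an NF-kB match is printed above. Csf1 was at 85.6 CPM in F364 ROV, 90.1 CPM in the F326 splenic tumor line, 96.0 CPM in F364 LOV, 37.7 CPM in F326 ROV, 31.5 CPM in the F361 peritoneal tumor line, 376 CPM in F319 ROV, and 334 CPM in F318 ROV. It was at 523 CPM in F339 ROV, 741 CPM in F318 LOV, 723 CPM in the F319 uterus line, and 773 CPM in the F333 uterus line. Libraries 8 to 11 were above all others, the 2 lines next to them were F319 ROV and F318 ROV, and the gene rose (log2 fold change 1.93, SE 0.56, edgeR adjusted p = 0.0111). The mice F318 and F319 gave the lines on both sides: Csf1 was 2.21 times higher in F318 LOV than in F318 ROV and 1.92 times higher in the F319 uterus line than in F319 ROV. With the mouse as a block the fold change was smaller and did not pass (log2 fold change 0.82, edgeR adjusted p = 0.24), nor did it within the ovary lines (log2 fold change 1.49, edgeR adjusted p = 0.13). The other colony-stimulating factors were low, with Csf3 at most at 1.14 CPM in F364 ROV and Csf2 at fewer than 3 counts in every line.

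Of the interleukin 6 family, Lif, which keeps stem cells undifferentiated and is needed for implantation in the uterus, was at 4.44 CPM in F364 ROV, 0.759 CPM in the F326 splenic tumor line, 0.886 CPM in F364 LOV, 6.34 CPM in F326 ROV, 0.884 CPM in the F361 peritoneal tumor line, 5.46 CPM in F319 ROV, and 7.99 CPM in F318 ROV. It was at 6.04 CPM in F339 ROV, 5.80 CPM in F318 LOV, 13.8 CPM in the F319 uterus line, and 9.24 CPM in the F333 uterus line. The F319 uterus line was the highest and the F333 uterus line the next, but the ovary lines reached 7.99 CPM and the gene passed neither comparison (log2 fold change 0.88, SE 0.61, edgeR adjusted p = 0.229 between library sets). Il6 was at 6.74 CPM in F318 ROV, 5.10 CPM in F339 ROV, 3.25 CPM in the F333 uterus line, and under 1 CPM in the other 8 lines. Il11 reached 2.14 CPM in the F319 uterus line and stayed at or under 0.471 CPM elsewhere.

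Of the interleukin 1 family, Il33, an alarm signal held in the nucleus, was at 1.65 CPM in F364 ROV, 1.39 CPM in the F326 splenic tumor line, 0.506 CPM in F364 LOV, 4.61 CPM in F326 ROV, 7.58 CPM in the F361 peritoneal tumor line, 11.1 CPM in F319 ROV, and 3.65 CPM in F318 ROV. It had 13.61 CPM in F339 ROV, 0.924 CPM in the F319 uterus line, 0.743 CPM in the F333 uterus line, and fewer than 3 counts in F318 LOV. F339 ROV was the highest of all lines, F364 LOV was below both uterus lines, and the gene did not pass (log2 fold change -0.57, SE 1.06, edgeR adjusted p = 0.667). With the mouse as a block, to which F339 ROV adds nothing because its mouse gave 1 line, Il33 was lower in libraries 8 to 11 (log2 fold change -4.48, edgeR adjusted p = 0.0245), and leaving out F339 ROV gave -3.19 (edgeR adjusted p = 0.021). Il1a, the form of interleukin 1 that acts as an alarm from dying cells, was at 11.02 CPM in F318 ROV, 0.253 CPM in the F326 splenic tumor line, 0.179 CPM in F319 ROV, and fewer than 3 counts in the other 8 lines. The F318 LOV line of the same mouse had a count of 0 for it. Il1b, the secreted form, reached 1.46 CPM in F364 ROV and was at most 0.0928 CPM in libraries 8 to 11. Its counts were too low for the edgeR fit of all 11 lines. It was lower in libraries 8 to 11 in the fit of the ovary lines (log2 fold change -4.09, edgeR adjusted p = 0.0351), by DESeq2 (-4.15, adjusted p = 0.00081), and by edgeR without the filter on low counts (-3.85, adjusted p = 0.016). Leaving out F339 ROV, F318 LOV, or either uterus line brought Il1b into the edgeR fit, where it passed in all 4 cases (log2 fold change -4.50 to -3.49). These 4 fits share every line of the other library set, where Il1b was highest. They are therefore not independent and add no separate support for the difference. Tnf reached 1.03 CPM in the F361 peritoneal tumor line. Il1a and Il1b have annotated transcripts on the opposite strand (Gm14023 and Il1bos).

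Tslp, an epithelial cytokine that acts on dendritic cells, was at 1.02 to 1.70 CPM in libraries 8 to 11 and from fewer than 3 counts to 0.633 CPM in libraries 1 to 7. The sets did not overlap at these low levels, and the gene rose (log2 fold change 1.73, SE 0.43, edgeR adjusted p = 0.00462), though not with the mouse as a block (log2 fold change 1.82, edgeR adjusted p = 0.198). It overlaps the annotated gene 4930455D15Rik on the other strand.

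Ptgs2 (cyclooxygenase 2), the inducible enzyme that makes the precursor of the prostaglandins, spanned the widest range of the members detected in every line and lies on chromosome 1 from 150100031 to 150108227. Ptgs2 was at 4.06 CPM in F364 ROV, 1.90 CPM in the F326 splenic tumor line, 10.9 CPM in F364 LOV, 0.401 CPM in F326 ROV, 1.91 CPM in the F361 peritoneal tumor line, 6.49 CPM in F319 ROV, and 85.1 CPM in F318 ROV. It was at 31.6 CPM in F339 ROV, 177 CPM in F318 LOV, 287 CPM in the F319 uterus line, and 296 CPM in the F333 uterus line. F326 ROV and the F333 uterus line differed by 739 times, and F318 ROV was the only line of libraries 1 to 7 above F339 ROV. The gene rose in libraries 8 to 11 (log2 fold change 3.46, SE 1.09, edgeR adjusted p = 0.0164, and 5.14 without F318 ROV), and the call was lost with the mouse as a block (log2 fold change 3.01, edgeR adjusted p = 0.146) and within the ovary lines (log2 fold change 2.08, edgeR adjusted p = 0.254). In mouse F319 it was 44.2 times higher in the uterus line than in the ROV line, and in mouse F318 it was 2.08 times higher in LOV than in ROV.

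The other genes of the prostaglandin pathway came from a list of 14. Of 12 tested, 3 were higher and 3 lower in libraries 8 to 11, with a median log2 fold change of 0.66. Ptges3, a prostaglandin E synthase and chaperone partner, was higher (log2 fold change 1.26, SE 0.17, edgeR adjusted p = 0.000124), while Ptges2 (log2 fold change -1.82, SE 0.28, edgeR adjusted p = 0.000271) and the thromboxane synthase gene Tbxas1 (log2 fold change -2.58, SE 0.49, edgeR adjusted p = 0.000986) were lower. Pla2g4a, whose product frees arachidonic acid for cyclooxygenase, was also higher (log2 fold change 2.92, SE 0.80, edgeR adjusted p = 0.0079), as was Ptgds, and Hpgd was lower. The constitutive cyclooxygenase gene Ptgs1 was at 5.39 to 189 CPM and did not pass (log2 fold change 1.22, SE 0.80, edgeR adjusted p = 0.209). Of the prostaglandin E2 receptors, Ptger4 was at 1.95 to 13.0 CPM and Ptger1, Ptger2, and Ptger3 reached 2.18, 0.951, and 1.03 CPM. The transporter gene Slco2a1 had the widest range of the list, from 0.924 CPM in the F319 uterus line to 475 CPM in the F333 uterus line.

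The receptors of the abundant ligands were mostly scarce. Of the 22 chemokine receptors listed, 21 were in the table, 1 passed 10 CPM in any line, and 9 stayed under 1 CPM in every line. The exception was Ackr3, the atypical receptor that takes up Cxcl12, at 2.32 to 45.8 CPM (log2 fold change -1.09, SE 0.71, edgeR adjusted p = 0.205). Cxcr4, the signaling receptor of Cxcl12, was at 0.896 to 3.02 CPM in libraries 1 to 7 against 0 to 0.371 CPM in libraries 8 to 11, and fell (log2 fold change -3.98, SE 0.79, edgeR adjusted p = 0.00124). Cx3cr1 reached 1.07 CPM, Ccr2 2.19 CPM, Ccr1 1.34 CPM, Ccr3 0.127 CPM, Ccr10 1.07 CPM, Cxcr2 1.14 CPM, and Cxcr3 0.267 CPM. Of 10 receptors tested, 2 were higher and 5 lower, with a median log2 fold change of -2.15. Cxcr6, the receptor of Cxcl16, was higher (log2 fold change 3.43, SE 0.65, edgeR adjusted p = 0.000921), with 5.77 CPM in the F319 uterus line, as was Cxcr5, the receptor of Cxcl13 (log2 fold change 2.03, SE 0.49, edgeR adjusted p = 0.00421). The scavenging receptors Ackr2 (log2 fold change -5.80, SE 0.89, edgeR adjusted p = 0.000271) and Ackr1 (log2 fold change -4.31, SE 0.77, edgeR adjusted p = 0.000648) were lower.

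Of 17 cytokine receptors tested, 4 were higher and 7 lower, with a median log2 fold change of -0.11. Il11ra1 (log2 fold change -1.54, SE 0.23, edgeR adjusted p = 0.000264), Csf1r (log2 fold change -2.36, SE 0.37, edgeR adjusted p = 0.000301), and Csf2rb (log2 fold change -6.11, SE 0.98, edgeR adjusted p = 0.000355) had the smallest p-values. Csf1r was at 6.85 to 16.0 CPM in libraries 1 to 7 against 1.96 to 3.30 CPM in libraries 8 to 11, the reverse of its ligand Csf1, and the macrophage list was lower in the same libraries. The receptors of Lif were both well detected, with Lifr at 21.2 to 101 CPM and the shared chain Il6st at 164 to 877 CPM. Il1rl1, which binds Il33, was at 27.4 CPM in the F319 uterus line and at most 2.97 CPM elsewhere (log2 fold change 3.39, SE 0.90, edgeR adjusted p = 0.00666), and Il1r1, which binds Il1a, was at 5.41 to 60.8 CPM.

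**Figure D4:**
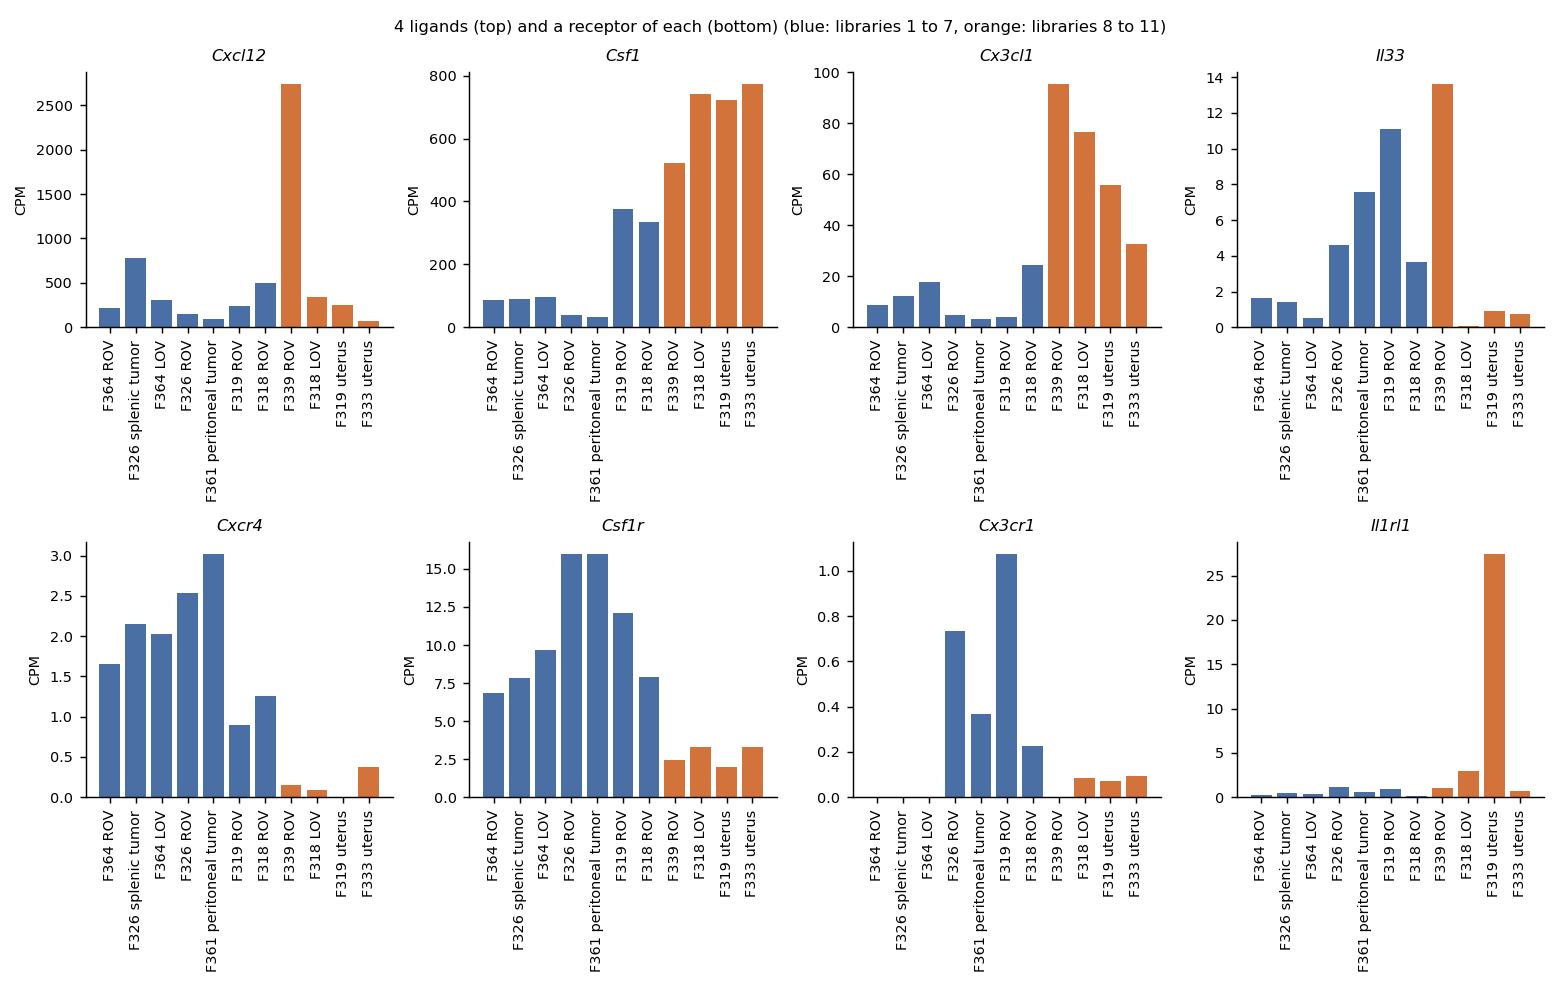
CPM in each line of 4 ligands (top, Cxcl12, Csf1, Cx3cl1, and Il33) and of a receptor of each (bottom, Cxcr4, Csf1r, Cx3cr1, and Il1rl1), blue for libraries 1 to 7 and orange for libraries 8 to 11, each panel with its own axis from 0. Csf1 and Cx3cl1 were higher in orange and Csf1r and Cxcr4 were higher in blue, and the receptor Il1rl1 was high in the F319 uterus line, where Il33 was at 0.924 CPM.

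The NF-kB pathway was described from a list of 26 genes. Of 25 tested, 5 were higher and 3 lower in libraries 8 to 11, with a median log2 fold change of 0.21. Nfkbib, an inhibitor of NF-kB, was lower (log2 fold change -2.66, SE 0.48, edgeR adjusted p = 0.000729), and the kinase genes Ripk1 (log2 fold change 1.56, SE 0.34, edgeR adjusted p = 0.00226) and Chuk (log2 fold change 1.16, SE 0.28, edgeR adjusted p = 0.00422) were higher. The subunit genes Nfkb1 and Rela were detected in every line and did not pass, with Nfkb1 at 44.0 to 122 CPM and Rela at 31.1 to 158 CPM.

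Of 5 chemokine-like genes that the symbol rule left out, 3 were tested. Pf4, a platelet and macrophage chemokine, was lower (log2 fold change -4.15, SE 0.84, edgeR adjusted p = 0.00139), and Mif (log2 fold change 1.04, SE 0.22, edgeR adjusted p = 0.00162) and Cmtm3 (log2 fold change 1.22, SE 0.36, edgeR adjusted p = 0.0127) were higher. Mif was at 67.1 to 179 CPM in libraries 1 to 7 against 247 to 386 CPM in libraries 8 to 11. Of 12 other secreted cytokines tested, 0 were higher and 5 lower, with a median log2 fold change of -0.30, and Il12a (log2 fold change -5.49, SE 0.88, edgeR adjusted p = 0.000347), Il16 (log2 fold change -3.00, SE 0.64, edgeR adjusted p = 0.00194), and Ctf1 (log2 fold change -2.44, SE 0.62, edgeR adjusted p = 0.00523) led. Il34, the other ligand of Csf1r, was at 0.175 to 11.6 CPM.

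Marker lists of other cell types were counted in the same comparison, in which 58.5% of all genes passed. Of 11 endothelial genes, 8 were lower and 0 higher (summed level 264 to 604 CPM in libraries 1 to 7 against 27.1 to 466 CPM in libraries 8 to 11), and of 45 muscle fiber genes tested, 44 were lower. Of 3 tested genes of lymphocytes and granulocytes, 3 were lower (summed level 3.17 to 61.4 against 1.76 to 4.20 CPM). Of the 5 epithelial genes tested, 2 were lower, of the 4 mesothelial genes 2 were lower, and of the 12 fibroblast genes 5 were higher and 3 lower. All 4 Y-linked genes were lower. The part of these cells in the members' differences was not tested. In a fit with the muscle fiber genes left out, 12 of 27 members passed beside 58.4% of all genes.

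**Figure D5:**
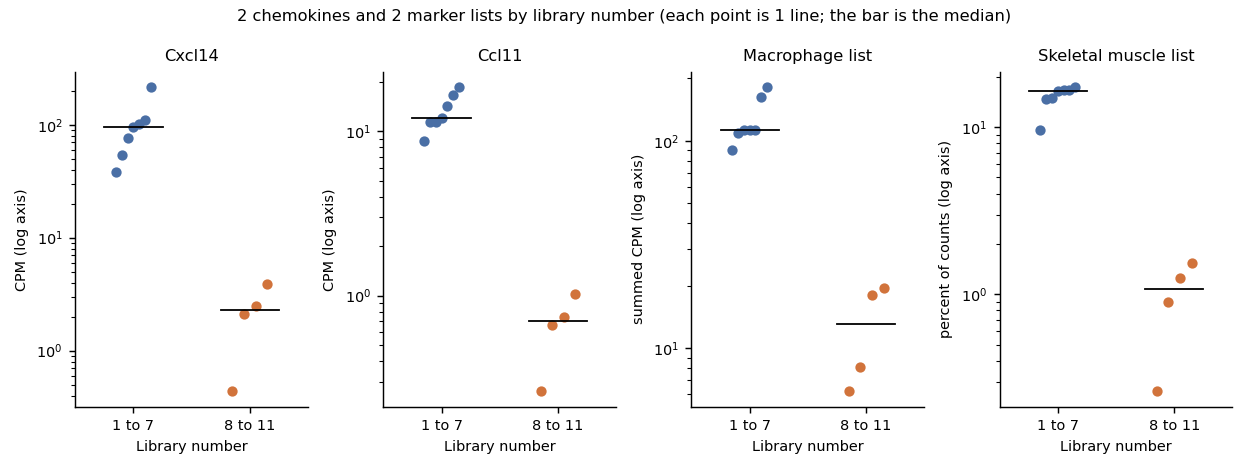
Levels of Cxcl14 and Ccl11 (CPM), the summed CPM of the 16 macrophage markers, and the percentage of counts on the skeletal muscle fiber list, by library number, on log axes, with a point for each line and a bar at the median. In all 4 panels the 7 lines of libraries 1 to 7 lay above the 4 lines of libraries 8 to 11.

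To ask whether these levels differed with the organ of origin, the 2 uterus lines were compared with the 7 ovary lines. By edgeR, 0 of 17446 genes (0%) passed an adjusted p of 0.05, with 2308 at an unadjusted p under 0.05, and 0 of 30 members passed, with 6 at an unadjusted p under 0.05 (Ccl9, Il11, Cxcl2, Ccl11, Ccl6, and Cxcl14). Ccl9 had the smallest p (log2 fold change 3.36, SE 0.75, edgeR adjusted p = 0.359), with 9.87 and 83.5 CPM in the uterus lines against 1.47 to 9.18 CPM in the ovary lines. Il11 was at 2.14 CPM in the F319 uterus line, 0.464 CPM in the F333 uterus line, and at most 0.471 CPM in any ovary line (log2 fold change 2.78, SE 0.87, edgeR adjusted p = 0.359). Ptgs2, at 287 and 296 CPM in the uterus lines against 0.401 to 177 CPM in the ovary lines, was higher in both uterus lines than in every ovary line, but the spread between ovary lines was wide (log2 fold change 2.69, SE 1.31, edgeR adjusted p = 0.359). DESeq2 called 1315 genes (4.73%) and 5 members: Ccl9 was higher, and Cxcl2, Ccl11, Ccl6, and Cxcl14 were lower. Within libraries 8 to 11, with 2 lines of each organ, 0 of 23 members and 0 of 15566 genes passed by edgeR, and 4 members and 522 genes had an unadjusted p under 0.05. In a fit with the mouse as a block, which rests on F319 and was added after seeing the data, 0 of 30 members and 0 genes passed, and 4 members and 1501 genes had an unadjusted p under 0.05. Within libraries 8 to 11, both uterus lines had more Cxcl14 (2.48 and 3.85 CPM) than both ovary lines (2.12 and 0.436 CPM). In mouse F319 the uterus line had less (2.48 against 215 CPM in ROV).

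The lines of 1 mouse were set side by side for the 20 members reaching 10 CPM, with no test, because each pair is 2 libraries. The share of all genes differing more than 4-fold was not computed for any pair, so the counts cannot be read as particular to the members. The F318 and F319 pairs also lie on both sides of the library split, at which 58.5% of all genes passed. The closest were F364 ROV and F364 LOV, both in libraries 1 to 7, which differed more than 4-fold for 1 of 18 members detected in both (Lif, at 4.44 and 0.886 CPM). F318 ROV and F318 LOV differed more than 4-fold for 6 of 17 members, of which Cxcl14 was the largest, at 95.7 and 0.436 CPM. F319 ROV and the F319 uterus line differed so for 9 of 19, from Ccl7 (1.79 and 158 CPM) to Cxcl14 (215 and 2.48 CPM). The F326 splenic tumor line and F326 ROV, both in libraries 1 to 7, differed so for 8 of 16 members. In that mouse 12 members were lower in F326 ROV, among them Cxcl12 (783 and 155 CPM), Ccl2 (7.40 and 0.534 CPM), and Ccl7 (4.75 and 0.534 CPM), while Lif was 8.35 times higher there.

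The splenic and peritoneal tumor lines had 1 library each, so their levels are given with 95% Wilson intervals, which cover counting error only. Of the 20 members, 18 were within the range of the ovary lines in the F326 splenic tumor line, Ccl27a was above it at 10.6 CPM (9.08 to 12.3), and Lif was below it at 0.759 CPM (0.434 to 1.33). Ccl27a reached 10 CPM in that line alone, so that its standing above the range partly follows from the choice of members at 10 CPM. Over all 12077 genes reaching 10 CPM in any line, 12.1% were above the ovary range in this line and 22.7% below. In the F361 peritoneal tumor line, 15 were within the range and Ccl11 was above it at 18.6 CPM (16.4 to 21.0). Below it were Csf1 at 31.5 CPM (28.7 to 34.6), Cxcl12 at 97.4 CPM (92.3 to 103), Cx3cl1 at 3.31 CPM (2.48 to 4.43), and Lif at 0.884 CPM (0.505 to 1.54). Of the same genes, 13.0% were above the ovary range in the F361 line and 32.1% below, so that in both lines a smaller share of the members than of all genes lay outside it. The nearest ovary line lay inside the interval for Lif in both lines (0.886 CPM in F364 LOV) and, in the F361 line, for Ccl11 (16.6 CPM in F326 ROV) and Cx3cl1 (4.03 CPM in F319 ROV). These were not separated from the ovary range at this depth.

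By line, F339 ROV had the highest level of 7 of the 20 members reaching 10 CPM (Cxcl12, Cx3cl1, Cxcl1, Cxcl5, Il33, Ccl5, and Cxcl16), the F319 uterus line of 4 (Ccl7, Ccl2, Lif, and Cxcl10), and the F333 uterus line of 3 (Csf1, Ptgs2, and Ccl9). F319 ROV was highest for Cxcl14 and Ccl6 and F318 ROV for Cxcl13 and Il1a, while F364 ROV, F364 LOV, F326 ROV, and F318 LOV were highest for none of the 20. The other 2 maxima were that of Ccl27a in the F326 splenic tumor line and that of Ccl11 in the F361 peritoneal tumor line. Of the 20, 8 reached 10 CPM in 1 line alone, so that their place in this count partly follows from the 10 CPM limit: Cxcl5, Ccl5, and Cxcl16 in F339 ROV, Cxcl13 and Il1a in F318 ROV, Lif in the F319 uterus line, Ccl9 in the F333 uterus line, and Ccl27a in the F326 splenic tumor line. Among the 12 that reached it in 2 or more lines, F339 ROV was highest for 4, beside 12.1% of all 11354 such genes. The F319 uterus line was highest for 3 of the 12, beside 22.2%. Among the 32 members reaching 1 CPM, F339 ROV was highest for 8, the F319 uterus line for 6, the F361 peritoneal tumor line for 4, F364 ROV for 3, and F318 LOV for 1. The shares over all genes reaching 1 CPM were not computed.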

How the data were processed

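The authors aligned paired-end reads of directional, poly(A)-selected libraries to GRCm38 (mm10) with STAR, removed PCR duplicates, and counted reads per gene with featureCounts. The counts were deposited unnormalized, and tool versions and the strand and pairing settings of the counting were not given in the sources used here. In every library 71.9% to 79.6% of the counts from 1 to 20 were even, so many fragments seem to have been counted as 2 reads, and intervals cover counting error only and are too narrow.

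Libraries 8 to 11 were compared with libraries 1 to 7 (11 lines), and uterus with ovary lines (9 lines), by edgeR 4.0.16 (R 4.3.3, TMM, filterByExpr, quasi-likelihood test, Benjamini-Hochberg over all genes tested, threshold 0.05). The tests were tested on simulated data. Of 28284 genes, 15954 and 17446 passed the filter. Alternatives were DESeq2 1.42.0, RLE size factors, no filter, muscle fiber genes left out, ovary lines only, the mouse as a block (for uterus against ovary added after seeing the data), libraries 8 to 11 only, all 11 lines in the fit, and each line left out. Library numbers were taken from the labels, but the cut after number 7 was set because earlier results of these data fell apart there. The labels give no such boundary, so the calls between the sets describe the split and are no independent test of it. Every line is a separate culture, but lines of 1 mouse share that mouse, and p-values measure the spread between these lines.

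Values in every line are given for members reaching 10 CPM, ranges for those reaching 1 CPM, and the highest level for the rest, and receptors and the 3 genes of each list with the smallest p-value are named. Other genes named were chosen after their values were seen. Members and lists were chosen with earlier results of these data known. Promoters came from RefSeq (GRCm38.p6).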

Additional observations from a re-analysis of the deposited data

Results flagged for a closer look

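For the 20 members reaching 10 CPM, the highest and lowest lines of the ovary group, of libraries 1 to 7, and of libraries 8 to 11 were examined with Dixon's test on log2(CPM + 1), over 60 groups in all, and 10 stood apart. Chance flags about 1 in 20 groups, and these groups share lines. Of these, 1 is void: the Il1a level of F339 ROV, 0.0392 CPM, is 1 count against 0 in the other 3 libraries of 8 to 11, and with such ties any single count stands apart. Another 4 concern members that reached 10 CPM in the named line alone (Ccl5 and Cxcl5 in F339 ROV, and Il1a in F318 ROV in 2 groups), and nothing is read from these because that line also chose the member. Its Cxcl12 level, 2737 CPM, was the highest of the ovary lines (next 499.9 CPM), as was its Ccl5 level of 13.5 CPM (next 1.61 CPM). Within libraries 8 to 11 it had the highest Cxcl1, at 60.2 CPM (next 7.36 CPM), and the highest Cxcl5, at 48.1 CPM (next 0.850 CPM). It had the lowest Csf1 of these 4 libraries, at 523 CPM (next 723 CPM). F318 ROV had an Il1a level of 11.02 CPM, apart from both the ovary lines and libraries 1 to 7 (next 0.179 and 0.253 CPM), and a Cxcl5 level of 6.34 CPM, apart from libraries 1 to 7 (next 2.21 CPM). F364 LOV had the lowest Lif of the ovary lines, at 0.886 CPM (next 4.44 CPM).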

How the results depend on the processing

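Between libraries 8 to 11 and libraries 1 to 7, 12 members and 9337 genes passed. With the mouse as a block, 4 members and 3028 genes passed, and leaving out 1 line gave 10 to 14 members and 8526 to 9311 genes. Over the named members and alternatives, 331 fold changes stayed on their side of the threshold, 11 newly passed, and 23 no longer passed. Another 4 reversed with a call in the main fit or the alternative. The 331 include fold changes that turned sign and passed in neither fit, among them Cxcl1 and Ccl5 with the mouse as a block. Ccl9 reversed within the ovary lines (-0.96) and with the mouse as a block (-0.19), and ran from -0.12 (without F333 uterus) to 2.66 with 1 line left out. Cxcl5 ran from -2.91 (without F339 ROV) to 2.50 with 1 line left out, and was at 3.05 within the ovary lines and -2.82 with the mouse as a block. Ccl11, Ccl6, and Cxcl14 passed in all 17 settings. DESeq2 called 16 of 40 members beside 38.7% of all genes, and its median over all genes was -0.23 against 0.03 by edgeR. Between uterus and ovary lines, DESeq2 called 5 members and 1315 genes against 0 and 0 by edgeR, edgeR without the filter called 0 members and 2 genes, and leaving out 1 line gave 0 members and 0 to 1 genes. The cause of these changes was not tested. With the mouse as a block, added after seeing the data, 0 members and 0 genes passed between uterus and ovary lines, in a fit whose organ term rests on F319 alone. Of the members the filter kept out of the edgeR fit of 11 lines, DESeq2 called Ccl27b, Cxcl9, and Il1b lower and Il11 higher in libraries 8 to 11, and edgeR without the filter called Ccl27b, Il1a, and Il1b lower and Il11 higher.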
